A study of Mus musculus and Homo sapiens with 22 samples.

Results

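The 9430 peaks described here are the promoter peaks of the Hep3B list. It holds the peaks called with a FLAG antibody in a human hepatocellular carcinoma line overexpressing PROX1. They were chosen by position alone, as the peaks on chromosomes 1 to 22 whose summit lay within 1000 bp of any annotated transcription start site (TSS; GENCODE 44 on hg38). They made up 66.2% of the 14247 peaks on these chromosomes (95% Wilson interval 65.4 to 67) and 65.6% of the 14369 peaks in the whole list, and the other 4817 peaks on chromosomes 1 to 22 served for comparison. The 3 lists of the series held 105059 peaks.

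CUT&RUN, in which a nuclease tethered to an antibody releases the DNA that an antigen occupies, was run on 22 samples in 6 groups. Hep3B cells carried a stably integrated, puromycin-selected lentivirus for human PROX1, pLIX-Puro-hsPROX1, and received 2 µg/ml doxycycline for 2 days before profiling with a rabbit FLAG antibody (3 samples) or rabbit IgG (3 samples). The labels name no tag in this construct, and the FLAG tag on it is given by the study's methods. Both Hep3B groups carried the transgene and the drug, so no list from cells without PROX1 induction entered the comparison. The mouse groups were embryonic fibroblasts (MEFs) from C57BL/6N embryos with rtTA and tetO-FLAG-mmProx1 lentiviruses and the same induction (FLAG 3, IgG 3), and livers of 2 to 3-month-old wild-type C57BL/6J mice (PROX1 antibody 5, IgG 5). The Hep3B list pooled its 3 FLAG samples into one set of peaks, so the depth per sample is unknown, there is no replicate error, and every interval and p-value below describes the peaks of this one list and not the spread between cultures.

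PROX1 is a homeodomain transcription factor of liver, lymphatic endothelium, lens and nervous system that acts with corepressors such as the NuRD complex, and with nuclear receptors. A promoter is the stretch around a TSS on which RNA polymerase II and the general transcription factors assemble. Most human promoters of widely expressed genes lie in CpG islands and carry short elements bound by general activators, among them the CCAAT box of the trimeric factor NF-Y, the GC box of the SP and KLF zinc finger proteins, and the sites of NRF1, ETS factors, YY1 and ZNF143. Promoters of tissue genes more often hold a TATA box and few CpG dinucleotides, and liver enhancers hold sites of FOXA, HNF4 and HNF1.

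The sequences at the summits show what these peaks hold. Below are the sequences around the summits of strong promoter peaks that carried the motifs with the highest summit-to-flank ratio, read from the forward strand of hg38 up to 60 bases on each side of the summit. Bases in annotated exons were trimmed off, peaks left with fewer than 40 bases were passed over, and capitals mark each match to one of the 19 motifs searched. In the following lines the NF-Y box was found at the peaks of HDGFL2 (chr19:4471669-4471789, shared with a noncoding gene without a symbol), STAT3 (chr17:42388572-42388692), PHTF2 (chr7:77798572-77798692) and GCDH (chr19:12890878-12890998).
HDGFL2: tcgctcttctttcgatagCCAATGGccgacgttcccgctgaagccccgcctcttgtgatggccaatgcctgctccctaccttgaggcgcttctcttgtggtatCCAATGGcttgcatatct
STAT3: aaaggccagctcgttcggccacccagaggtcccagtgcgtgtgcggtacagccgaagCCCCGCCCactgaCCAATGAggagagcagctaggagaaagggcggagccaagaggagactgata
PHTF2: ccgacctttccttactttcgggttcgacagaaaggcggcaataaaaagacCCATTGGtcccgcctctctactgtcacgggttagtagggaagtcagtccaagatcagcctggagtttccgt
GCDH: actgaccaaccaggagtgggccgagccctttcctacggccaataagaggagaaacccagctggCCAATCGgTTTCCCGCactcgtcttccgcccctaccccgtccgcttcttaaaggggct
The HDGFL2 window held 2 NF-Y boxes, the STAT3 window an SP/KLF box before its NF-Y box, and the GCDH window an E2F site beside it.

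The NRF1 site marked the peaks of ESRRA (chr11:64305384-64305496) and ACTN4 (chr19:38647488-38647608), the ETS site those of ZNHIT1 (chr7:101218070-101218164) and ACOT8 (chr20:45857406-45857517), and the ZNF143 site those of PELI1 (chr2:64144487-64144607) and PA2G4 (chr12:56104435-56104536).
ESRRA: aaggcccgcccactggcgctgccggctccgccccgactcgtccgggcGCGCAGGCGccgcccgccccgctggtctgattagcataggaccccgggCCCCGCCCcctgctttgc
ACTN4: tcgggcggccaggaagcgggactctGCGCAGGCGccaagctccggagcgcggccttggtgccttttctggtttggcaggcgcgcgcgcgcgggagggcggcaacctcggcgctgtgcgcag
ZNHIT1: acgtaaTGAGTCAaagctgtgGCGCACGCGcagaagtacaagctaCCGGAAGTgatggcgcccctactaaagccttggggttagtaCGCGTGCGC
ACOT8: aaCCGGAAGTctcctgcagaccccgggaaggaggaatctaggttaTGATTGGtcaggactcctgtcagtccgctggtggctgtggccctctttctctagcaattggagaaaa
PELI1: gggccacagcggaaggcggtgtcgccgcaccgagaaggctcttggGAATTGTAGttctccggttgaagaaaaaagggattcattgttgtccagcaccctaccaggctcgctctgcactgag
PA2G4: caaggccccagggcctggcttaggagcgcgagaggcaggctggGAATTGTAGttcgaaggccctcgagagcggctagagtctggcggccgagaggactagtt
ZNHIT1 joined 2 NRF1 sites, an ETS site and an AP-1 site in one window, and ACOT8 joined an ETS site with an NF-Y box on the other strand.

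Promoter peak summits gathered just upstream of the TSS. The median signed distance in the direction of transcription was -36.5 bp (quartiles -115 and 11), and the fullest 50-bp bin, from -50 to 0 bp, held 2297 peaks or 24.4% of all. The summit was upstream of the nearest TSS in 68.5% of the peaks and downstream in 30.1%, while 125 sat on the TSS base. Within the 1000 bp the rule allowed, 59.2% of summits lay no more than 100 bp from a TSS and 92.9% no more than 500 bp. The rule itself required a nearby TSS, so these distances are given as a description.

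**Figure D1:**
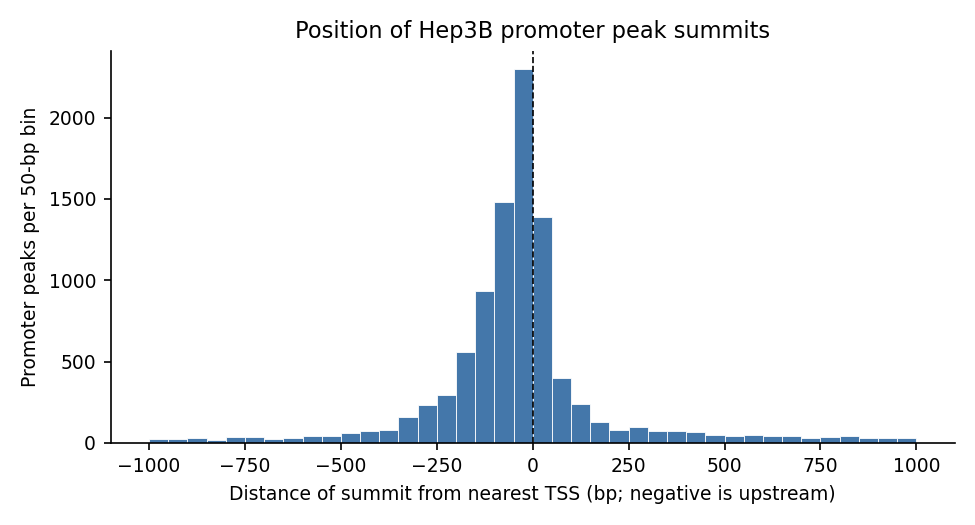
Distance of each of the 9430 promoter peak summits from its nearest TSS in bp (x axis; negative values are upstream) against the number of peaks per 50-bp bin (y axis), with the TSS as a dashed line. The bin from -50 to 0 bp holds 2297 peaks and the distribution leans upstream.

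The 3 summits just inside were those at FBXO17 (1000 bp, −log10 p 6.25), the 7SL pseudogene RN7SL600P (1000 bp, 5.40) and the chromatin remodeller CHD2 (999 bp, 4.67). The 3 just outside lay 1001 bp from a gene without a symbol (6.45), 1001 bp from PALS2 (5.07) and 1002 bp from PLEC (7.40).

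The nearest TSS belonged to a protein-coding gene for 7774 peaks (82.4%), to a long noncoding RNA (lncRNA) gene for 1452 (15.4%) and to another gene type for 204, among them 39 miRNA and 36 snRNA genes. A start of a protein-coding transcript lay within 1000 bp of 8271 peaks (87.7%). Of these, 1294 peaks served the starts of 2 or more protein-coding genes and 62 served 3 or more. Counted by gene, 8628 of 18765 protein-coding genes on chromosomes 1 to 22, or 46%, had a promoter peak (45.3 to 46.7), and 907 of them had at least 2. This share of 46% is the background against which the gene lists below are read. By chromosome the share ran from 33.8% on chromosome 21 (27.9 to 40.3) to 53.6% on chromosome 15 (49.5 to 57.6).

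No protein-coding gene started within 1000 bp of 838 promoter peaks (8.89%, 8.33 to 9.48), and their median −log10 p was 6.35 against 6.71 over all promoter peaks. The 5 strongest stood at HCG25 in the MHC region (chr6:33248790-33250189, −log10 p 10.3), the pseudogene FAM86C2P (10.3), the antisense gene PCGF3-AS1 (10.2), LINC01003 (10.1) and a noncoding gene without a symbol on chromosome 17 (10.0). None of the 5 held a start of a protein-coding gene, and the last carried an NF-Y box.

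Strength is given here by the summit −log10 p that the authors' peak caller assigned, which measures how far the read pileup stood above the caller's background. Over the promoter peaks it ran from 4.04 to 11.8 with a median of 6.71 (quartiles 5.83 and 7.72), against a median of 6.06 in the other peaks. The deposited area under each peak had a median of 544 in promoter peaks and 315 in the others, and the median width was 705 bp against 513 bp. The highest −log10 q in the list, 3.74, was shared by 11.6% of promoter peaks (11 to 12.3) and 2.39% of the others (1.99 to 2.86).

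The strongest promoter peak was at CCM2, a scaffold protein of endothelial junctions (chr7:44999177-45000366, −log10 p 11.8), with its summit 204 bp upstream of the TSS. It was followed by the peak shared by HDGFL2 (11.6), whose summit sequence with its NF-Y boxes is printed above, and by SF3B2 (11.5), a subunit of the splicing factor SF3b with an ETS site at its summit. The fourth, inside the first kilobase of the class I myosin gene MYO1F (11), had its summit 771 bp downstream of the start and no motif match. ESRRA (11), an orphan nuclear receptor that regulates mitochondrial genes, held an NRF1 site and an SP/KLF box. GPSM3 (10.9), the E3 ligase gene PELI1 (10.8), ANKRD10 (10.6), the cytokine-signalling factor STAT3 (10.6) and PHTF2 (10.5) completed the 10 strongest. Of these 10 peaks, 8 had a motif match and 4 carried an NF-Y box. The NF-Y box was found at 11.7% of all promoter peaks and at 18.7% of the strongest of 4 equal groups. No share over all promoter peaks is given for a match to any of the 19 motifs, so the 8 are a description.

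To see how position and base composition move with strength, the promoter peaks were divided into 4 groups of equal size by −log10 p, group 1 being the weakest (median 5.31) and group 4 the strongest (median 8.49). The median width rose with the group, at 586, 632, 748 and 919 bp, and the median summit position moved upstream, from -17 bp in group 1 to -52 bp in group 4. The share within 100 bp of a TSS was 50.3% in group 1 (48.2 to 52.3), 61.3% in group 2, 63.5% in group 3 and 61.6% in group 4 (59.6 to 63.5). It was thus lower in the weakest group and did not rise further after group 3. Base composition hardly moved, since the median CpG ratio was 0.790 in group 1 and 0.809 in group 4. Over all 9430 peaks, Spearman's rho of −log10 p was 0.373 with width, -0.0866 with distance from the TSS, 0.0693 with CpG ratio and 0.0487 with GC content. These correlations are across peaks of one list, which share their libraries, and are given without a test.

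Promoter peaks lay in CpG-rich sequence. The CpG ratio, the observed over the expected number of CpG dinucleotides within 250 bp of the summit, had a median of 0.806 in promoter peaks (quartiles 0.685 and 0.901) and 0.254 in the other peaks (0.155 and 0.410). A ratio of at least 0.6 was reached by 83.6% of promoter peaks (82.8 to 84.3) and by 12.7% of the others (11.8 to 13.6). The median GC content was 64.1% against 44.9%.

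The same property separated genes with a promoter peak from those without. Over 19103 protein-coding genes with one main start each, 8628 had a promoter peak at any of their protein-coding starts and 10475 had none. The sequence read was that of the main start, so a gene whose only peak lay at another start still counted as having one. The 10475 hold 338 genes that have no transcript typed protein-coding and are outside the 18765 genes above. Without them the 11 higher and 6 lower motifs below were 11 and 6 again. The median CpG ratio from 250 bases before to 50 after the main start was 0.868 for genes with a peak and 0.573 for those without. When genes were ordered by this ratio and divided into 10 equal groups, the share with a peak was 4.60% in the lowest (3.75 to 5.64), 8.38% in the second, 18.0% in the third and 45.7% in the fourth. It then levelled, with 57.8% in the fifth, 65.3% in the eighth (63.1 to 67.4) and 63.9% in the tenth (61.7 to 66.0). The strength of the peaks that were present did not follow this order, since their median −log10 p was 6.69 in the lowest group, 7.08 in the fifth and 6.78 in the tenth.

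**Figure D2:**
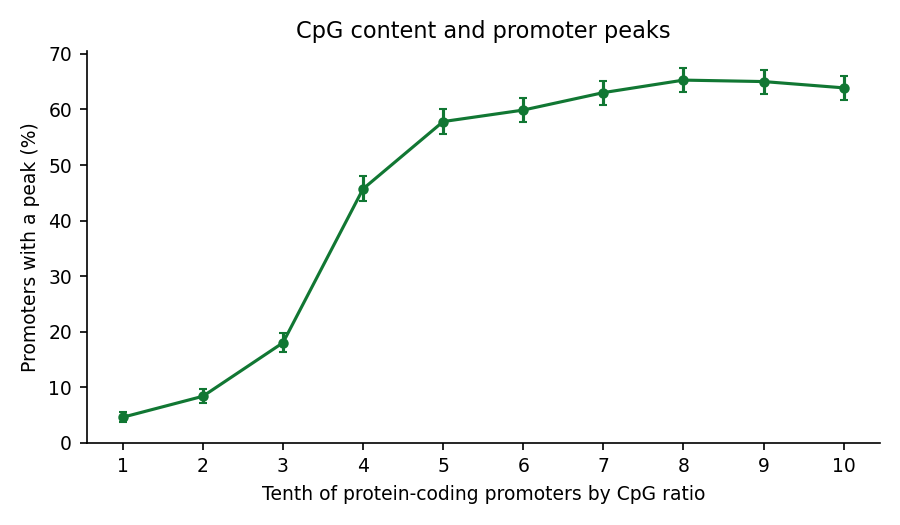
Share of protein-coding genes with a Hep3B promoter peak in percent (y axis) in each of 10 equal groups ordered by the CpG ratio of the main start (x axis, lowest at the left), with 95% Wilson intervals. The share climbs from 4.60% to 57.8% over the first 5 groups and stays between 59.9% and 65.3% in the rest.

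Which short sequences mark the summit itself was asked with 6-mers. Every 6-mer, a sequence and its reverse complement being one, was counted up to 25 bp from each summit, and again in equally wide windows centred 200 bp to its left and right. A two-sided exact binomial test compared both counts, with Benjamini-Hochberg adjustment over all 6-mers. At an adjusted p below 0.01, 220 were more frequent at promoter summits (10.6% of those tested) and 563 were less frequent (27.1%). The leading 3 among those seen at least 200 times all held the CCAAT core. CCAATC was found 510 times at summits and 361 times in the flanks, a ratio of 2.83 per position (exact binomial test, adjusted p = 8.43e-50). By the same exact test ATTGGC had a ratio of 2.80 (adjusted p = 9.60e-47) and CATTGG a ratio of 2.50 (adjusted p = 5.83e-25). After TGCGCA (2.44), which is part of the NRF1 site, came CAATCA (2.30), CATGCG (2.17), and the ETS core CGGAAG (2.13). The most frequent of the 12 leading 6-mers was CCGCCC, the core of the GC box, with 3374 summit matches and a ratio of 2.01. The depleted side was led by A and T runs, with AAAAAA at a ratio of 0.231 (226 against 1958). The mean GC content was 67% within 25 bp of the summit and 61.5% in the flanks, and the part of this difference in the counts was not tested.

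Set against the other Hep3B peaks, few 6-mers marked promoter summits in particular. By two-sided Fisher's exact tests of summit and flank counts in both kinds of peak, 8 6-mers had a higher summit-to-flank ratio in promoter peaks (0.385% of those tested) and 143 a lower one (6.88%). Of the 6 highest, 5 again overlapped the NF-Y box: CCAATC (2.83 in promoter peaks, 1.28 in the others, exact test, adjusted p = 1.28e-05), CAATGG (1.85 and 0.912), ATTGGC (2.80 and 1.43), CAATCA (2.30 and 1.19) and CATTGG (2.50 and 1.31). The GC-box 6-mer CCGCCC did not differ between them by this test, at 2.01 in promoter peaks and 1.97 in the others. Summits outside promoters were marked instead by CACTAG (1.03 in promoter peaks, 2.84 in the others), CAGCAG (0.913 and 2.11, exact test, adjusted p = 1.12e-21) and CAAACA (0.705 and 1.56). The rest of the 6 leading on this side were GCGCCC (1.32 and 2.96), CACCAG (1.01 and 2.12) and GCAGCA (0.803 and 2.01).

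Whole motifs were then searched on both strands within 50 bp of the summit: CCAAT followed by CA, CG, GA or GG for the NF-Y box, CCCCGCCC for the SP/KLF box, GCGCANGCG for NRF1, CCGGAAGT for ETS factors, AAGATGGCG for YY1, CTACAATTC for ZNF143, CACGTGAC for the USF/TFE E-box, TATAAA for the TATA box, TGANTCA for AP-1 and TGTTTAC for FOXA among the 19 motifs. A match is a description of the sequence and does not show that a factor was bound. From 250 bases before to 50 after the start, 34.4% of all protein-coding promoters held an SP/KLF box, 20.6% an NF-Y box, 11% an NRF1 site, 6.27% an ETS site, 2.87% a YY1 site and 0.414% a ZNF143 site.

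At promoter peaks the SP/KLF box was the most frequent, within 50 bp of 20.2% of summits (19.4 to 21.0) against 8.39% of windows centred 200 bp away. The NF-Y box was found at 11.7% (11.1 to 12.4) against 3.85%, the NRF1 site at 6.25% (5.78 to 6.75) against 2.03% and the ETS site at 3.76% (3.4 to 4.17) against 1.03%. The highest ratio of summit to flank was that of the rarer ZNF143 site, 3.78, followed by 3.64 for ETS, 3.08 for NRF1 and 3.04 for NF-Y. The TATA box was rarer at summits than beside them, at 1.08% against 2.31%. At least one of the NF-Y, NRF1, ETS, SP/KLF and USF/TFE motifs was present at 38.1% of promoter summits (37.1 to 39.1) and at 8.39% of the other summits (7.64 to 9.20).

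**Figure D3:**
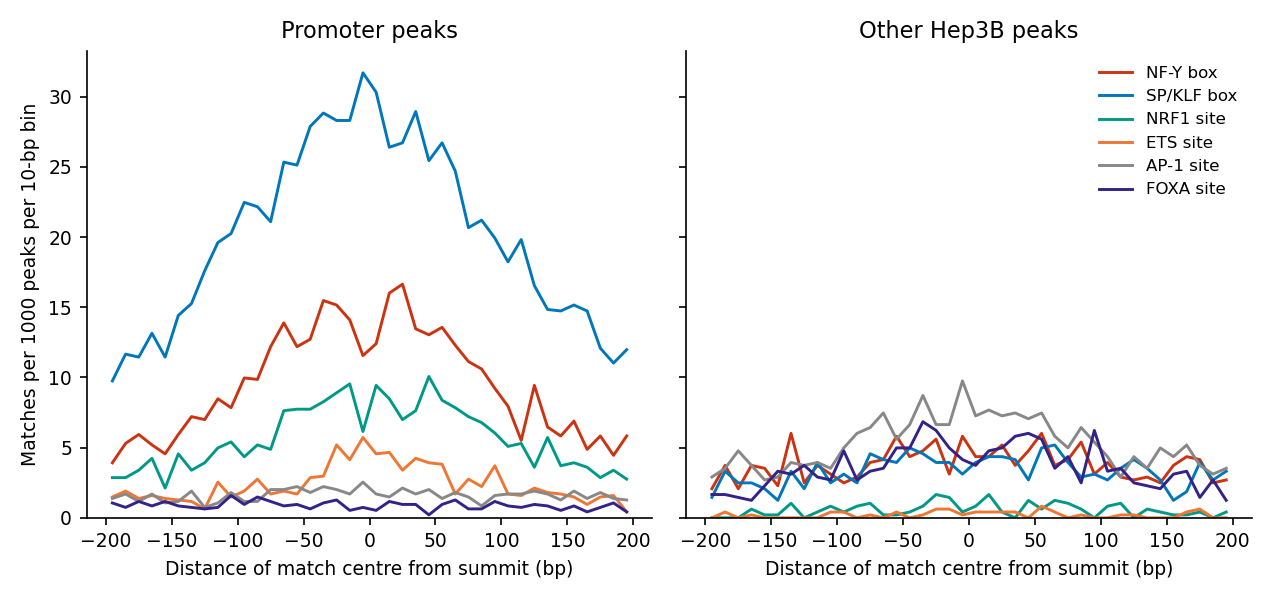
Matches per 1000 peaks in 10-bp bins (y axis) by distance of the match centre from the summit in bp (x axis) for 6 motifs, in the 9430 promoter peaks (left) and the 4817 other Hep3B peaks (right). SP/KLF boxes reach 31.7 and NF-Y boxes 16.6 per 1000 promoter peaks near the summit, while AP-1 sites lead in the other peaks at 9.76.

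The motifs kept their own places relative to the start. Among matches within 50 bp of a summit, the median NF-Y box lay -60.5 bp from the nearest TSS (quartiles -102 and -28.0), the SP/KLF box at -50.5 bp, the NRF1 site at -29.0 bp and the ETS site at -19.5 bp. The YY1 site, which is also part of the start of many transcripts, lay downstream at 15 bp (-16.0 to 29.0). These positions are across matches in one list and are given without a test.

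Promoter peaks and other peaks held different motifs. By two-sided Fisher's exact tests with adjustment over the 19 motifs, 11 were more frequent at promoter summits and 5 at the other summits at an adjusted p below 0.05. The odds ratio was 12.5 for the ETS site (95% interval 7.46 to 21.0), 9.96 for NRF1 (6.97 to 14.2), 9.48 for YY1 (3.85 to 23.3), 7.81 for SP/KLF (6.59 to 9.25, exact test, adjusted p = 2.30e-201) and 3.08 for NF-Y (2.64 to 3.60). The CpG ratio of both kinds of peak differed widely, and over 5 strata of CpG ratio the common odds ratio was 4.28 for ETS, 1.59 for NRF1, 6.04 for YY1, 2.16 for SP/KLF and 2.59 for NF-Y. The calls for CRE and E2F sites turned over in these strata, to 0.922 and 0.865.

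On the other side, the AP-1 site of stress- and growth-induced enhancers was found at 1.79% of promoter summits (1.54 to 2.08) and 6.81% of the others (6.13 to 7.56), an odds ratio of 0.250 (exact test, adjusted p = 1.52e-49). The site of FOXA, the pioneer factor of liver enhancers, was found at 0.753% and 5.00% (odds ratio 0.144, 0.110 to 0.188). HNF4 sites were at 5 promoter summits and 25 others, and HNF1 sites at 9 and 40. Taken as a group, a FOXA, HNF4, HNF1, C/EBP or ERR/LRH-1 site was present at 0.997% of promoter summits (0.815 to 1.22) and 6.46% of the others (5.8 to 7.19). FOXA made up most of this group, at 71 promoter summits and 241 others. C/EBP sites, at 7 and 3 summits (odds ratio 1.19, 0.308 to 4.61), and ERR/LRH-1 sites, at 2 and 4, did not differ by the test. Over the strata of CpG ratio the common odds ratio was 0.798 for AP-1 and 0.406 for FOXA.

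One consensus string for PROX1 itself, written from general knowledge and not taken from the authors' motif matrix, was rare at promoter summits, beside them and at the other summits. With up to 2 mismatches it lay within 50 bp of 1.38% of promoter summits (1.16 to 1.63), of 1.22% of the other summits (0.951 to 1.58) and in 1.77% of the windows 200 bp beside promoter summits (1.59 to 1.96). With at most 1 mismatch it was found at 9 promoter summits (0.0954%). No promoter summit held an exact match (Wilson interval up to 0.0407%). The exact string was in 0 of 4817 other summits and in 1 of 18860 windows beside promoter summits. A string this rare cannot show whether PROX1 sites were present or absent at these peaks. In strength group 4 the share with up to 2 mismatches was 1.19% (0.823 to 1.71) and in group 1 it was 1.78% (1.32 to 2.4).

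The NF-Y box was more frequent in the stronger promoter peaks. It was present at 5.13% of summits in group 1 (4.31 to 6.10), 10.0% in group 2, 13.1% in group 3 and 18.7% in group 4 (17.1 to 20.3), and the odds ratio of group 4 against group 1 was 4.24 (3.44 to 5.23, two-sided Fisher's exact test, adjusted p = 1.47e-47). The median −log10 p was 7.34 for the 1105 peaks with the box and 6.62 for those without. The 149 peaks with 2 or more boxes had a median of 7.18 and the 956 with exactly 1 had 7.35. In the 139 peaks with exactly 2 boxes their median spacing was 34 bp. The ratio was 4.23 over 5 strata of CpG ratio and 3.57 over 5 strata of signed distance to the TSS. The part of CpG content and of position in it was not tested. With groups made from the peak area in place of −log10 p the odds ratio was 2.13.

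The other motifs were compared between the same groups. The SP/KLF box was at 14.5% of summits in group 1 and 24.2% in group 4 (odds ratio 1.89, 1.63 to 2.19, exact test, adjusted p = 2.14e-16), and 1.34 was found with groups by area. The ZNF143 site was found at 1 peak of group 1 and 15 of group 4 (odds ratio 15.1, 1.99 to 114, exact test, adjusted p = 0.00242). Its ratio was 4.27 with groups by area, and with 25 bp on each side of the summit it was 11 and did not pass (exact test, adjusted p = 0.169). NRF1 sites (odds ratio 1.75, exact test, adjusted p = 0.000118) and ETS sites (1.54, adjusted p = 0.0283) were more frequent in group 4, but both ratios fell below 1 with groups by area, to 0.848 and 0.892. FOXA sites were less frequent in group 4, at 0.509% against 1.27% (odds ratio 0.397, exact test, adjusted p = 0.0283). This call was lost with groups by area (0.524, exact test, adjusted p = 0.427) and with 25 bp on each side (0.249, exact test, adjusted p = 0.11). For CRE, E-box, USF/TFE E-box, YY1, ZBTB33-type, E2F and AP-1 sites no difference passed the test, and for the E-box the interval of the odds ratio was 0.841 to 1.58. The AP-1 site, with an odds ratio of 0.607, passed with groups by area (0.546, exact test, adjusted p = 0.0354).

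**Figure D4:**
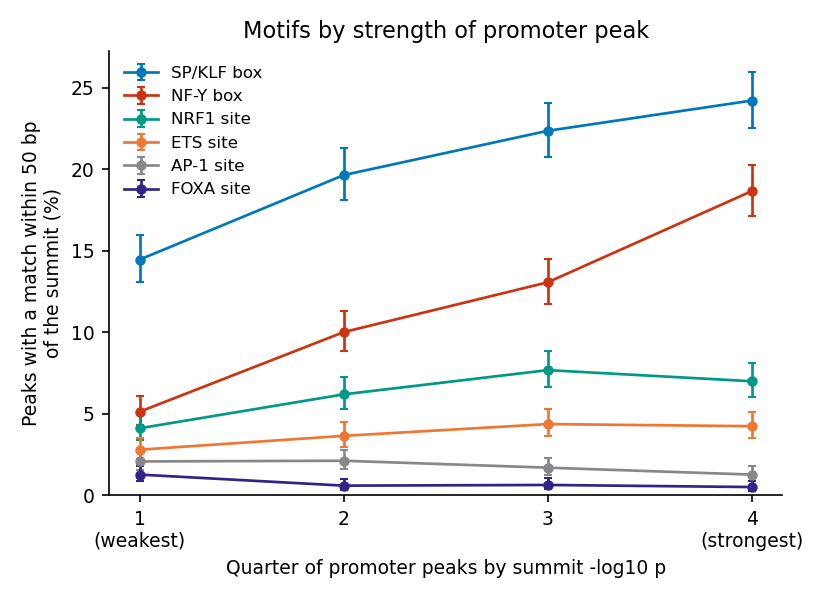
Share of promoter peaks with a motif within 50 bp of the summit in percent (y axis) in 4 equal groups by summit −log10 p (x axis, weakest at the left), with 95% Wilson intervals. The NF-Y box climbs from 5.13% to 18.7% and the SP/KLF box from 14.5% to 24.2%, while AP-1 and FOXA sites stay at or below 2.12%.

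The promoters themselves showed where the sequence differed between genes with and without a peak. From 250 bases before to 50 after the main start, 17 of 19 motifs differed by two-sided Fisher's exact tests at an adjusted p below 0.05, 11 being more frequent and 6 less frequent with a peak. The NF-Y box was present at the main start of 26.8% of the 8628 genes with a peak and 15.5% of the 10475 without (odds ratio 2.00, 1.86 to 2.15, exact test, adjusted p = 1.33e-81), and stratifying by CpG ratio in 10 groups left 1.93. The ZNF143 site, at 0.788% and 0.105%, had the highest ratio, 7.56 (3.99 to 14.3), and 7.43 in strata. Ratios were 4.60 for YY1, 4.55 for ETS and 3.55 for NRF1, and in strata 2.60, 2.53 and 1.76. The SP/KLF box was at 43.7% and 26.7% (odds ratio 2.13), but the stratified ratio was 1.03. The TATA box was at 4.51% with a peak and 14.1% without (odds ratio 0.289, 0.257 to 0.324), and in strata 0.645.

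Many promoter peaks lay at a pair of starts read in opposite directions. A divergent promoter was defined as a minus-strand start followed within 1000 bp by a plus-strand start of another gene, both within 1000 bp of the summit and both from protein-coding or lncRNA genes. Of the promoter peaks, 2777 (29.4%, 28.5 to 30.4) met this definition, and 1168 did so with protein-coding genes alone. The summit lay between the starts of such a pair in 2022 of the 2777 (72.8%). With the main start in place of the summit, 25.2% of 18765 protein-coding genes met the definition, 38.9% of those with a promoter peak and 13.7% of those without. The share was 25.1% in strength group 1 (23.4 to 26.9), 25.2% in group 2, 31.1% in group 3 and 36.5% in group 4 (34.6 to 38.5). The odds ratio of group 4 against group 1 was 1.72 (1.52 to 1.95, two-sided Fisher's exact test, p = 1.83e-17), and 1.55 over 5 strata of CpG ratio. One such peak served PSMA2 and MRPL32, a proteasome and a mitochondrial ribosome gene, with the same −log10 p of 9.12.

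Genes were grouped into 20 lists by function to see which promoters the peaks covered. The share of genes with a promoter peak had a Wilson interval entirely above the background of 46% in 14 lists and entirely below it in 4. This background takes in genes of every CpG ratio, whose share ran from 4.60% to 65.3% over the 10 groups above. The lists were not matched by CpG ratio, and its part in their shares was not tested. With peaks of an area of at least 500 alone, for which the background was 28.4%, 11 lists were above and 4 below, and the intervals of the PROX1 partners (42.9%), the lysosome and autophagy genes (35.7%) and the ZNF genes (30.2%) then included the background. The core spliceosome, which removes introns, had a peak at 30 of 31 genes (96.8%, 83.8 to 99.4), the exception being U2AF1, and was led by SF3B2 (−log10 p 11.5), SNRPD3 (9.23) and SF3B6 (8.70). Of the RNA polymerase II and general transcription factor genes 30 of 37 had one (81.1%), with GTF2H4 (9.42), GTF2F1 (8.69) and POLR2I (8.59) the strongest. Mediator, the complex between activators and the polymerase, had 24 of 28 (85.7%), among them MED11 (8.88).

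Protein synthesis and turnover were covered likewise. Aminoacyl-tRNA synthetases, which charge tRNAs, had peaks at 32 of 35 genes (91.4%, 77.6 to 97.0), with EARS2 the strongest (8.93) and with IARS1, NARS2 and RARS1 lacking one. ER chaperone and unfolded protein response genes had 22 of 24 (91.7%), led by the disulfide isomerase P4HB (9.65), the stress kinase EIF2AK3 (8.97) and the transcription factor ATF4 (8.70), with HERPUD1 and PDIA3 lacking one. Heat shock and chaperonin genes had 20 of 22 (90.9%), the strongest being the chaperonin subunits TCP1 (8.83), CCT3 (8.77) and CCT7 (8.73). The pair without a peak there, HSPA1A and HSPA1B, are near-identical copies whose reads may not be placed uniquely, so their values are uncertain. Proteasome subunits had 27 of 31 (87.1%), led by PSMD8 (9.60), and the mitochondrial ribosome 62 of 78 (79.5%, 69.2 to 87.0), led by MRPL34 (9.19).

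Genes of the dividing cell followed. DNA replication licensing factors and polymerases had 28 of 35 (80.0%), among them the helicase subunit MCM3 (9.17), POLD1 (8.79) and CDC45 (8.66). Mitosis and cell cycle kinase genes had 20 of 27 (74.1%, 55.3 to 86.8), led by the phosphatases CDC25A (8.98) and CDC25C (8.77) and the checkpoint kinase TTK (8.63). Nuclear pore genes (20 of 28, with SEH1L at 9.01) and lysosome and autophagy genes (20 of 28, with NPC2 at 8.63) each stood at 71.4%. Replication-dependent histones, whose genes are clustered multicopy families, were at 46.4% (32 of 69, 35.1 to 58.0), which is at the background.

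PROX1's known partners and corepressors had a promoter peak at 17 of 21 genes (81.0%, 60 to 92.3), led by ESRRA (11) and the NuRD subunits GATAD2A (8.91) and GATAD2B (8.12). Zinc finger genes with a symbol beginning with ZNF had 288 of 496 (58.1%, 53.7 to 62.3), led by ZNF768 (9.65), ZNF367 (9.30) and ZNF444 (9.19).

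The 4 lists below the background were of tissue genes. Hepatocyte secreted and metabolic genes had 6 of 29 (20.7%, 9.85 to 38.4), the strongest at complement C3 (8.36), the urea cycle enzyme CPS1 (7.58) and the apolipoprotein APOA2 (6.29). Neuronal receptor and channel genes had 6 of 51 (11.8%, 5.51 to 23.4), led by the sodium channels SCN2A (7.6) and SCN9A (7.18) and by GABRA2 (6.66). Keratins had 3 of 55 (5.45%), which were KRT8 (6.88), KRT18 (6.88) and KRT19 (5.66), and these are among the keratins of simple epithelia. Olfactory receptors had 0 of 389 (Wilson interval up to 0.978%). Oncofetal and tumour genes of hepatocellular carcinoma had 11 of 22 (50.0%, 30.7 to 69.3), which does not differ from the background beyond its interval, and MYC (8.59) and SOX9 (8.28) were among them.

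**Figure D5:**
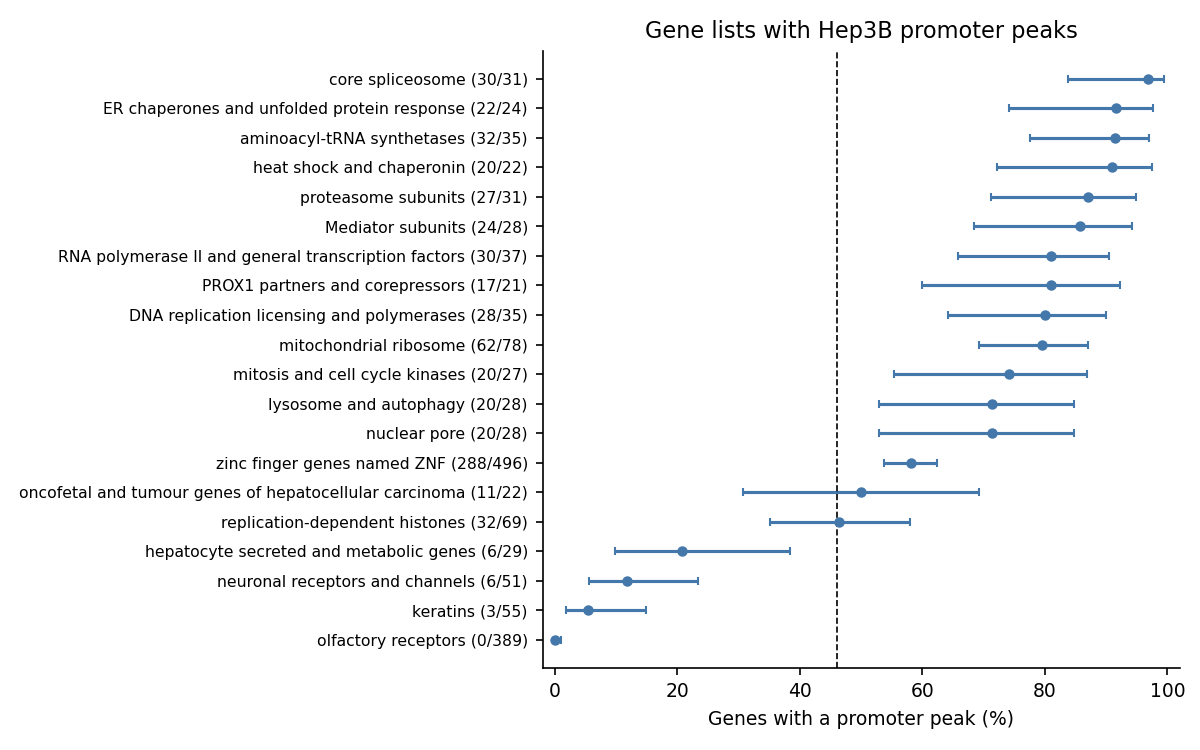
Share of genes with a Hep3B promoter peak in percent (x axis) for each of 20 gene lists (y axis, with the number of genes with a peak over the number in the list), with 95% Wilson intervals and the background of 46% as a dashed line. The 4 lists below the background sit between 0% and 20.7%, and the oncofetal list, at 50.0%, has an interval that includes it.

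Among genes that the study followed, MYC had 2 promoter peaks, the stronger with its summit 46 bp from a start and a −log10 p of 8.59, at or above 89.7% of promoter peaks. The actomyosin gene MYH9 stood higher at 9.49 (chr22:36387746-36388614) with an NF-Y and an SP/KLF box. SOX9, a factor of bile duct and progenitor cells (chr17:72120451-72121446), reached 8.28 and KRT19 (chr17:41528268-41528678) 5.66, both with an NF-Y box at the summit. MAP2 (6.45), PPARG (5.31) and the tight-junction gene TJP1 (4.81) had weaker peaks without a motif match. PROX1 itself had 3 promoter peaks, the strongest at 5.85 with its summit in an intron 827 bp from a start. The transduced construct carries PROX1 coding sequence, and the part of construct DNA in these peaks was not tested. HNF4A, ALB, TTR and PRRX1 had none, and their nearest summits lay 14928, 37242, 351266 and 131023 bp from a start.

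Genes with a strong Hep3B promoter peak more often had a promoter peak in the mouse lists. Of 7594 Hep3B target genes with a mouse gene of the same symbol, 93.6% had a promoter peak in MEFs and 47.0% in liver, against 46.9% (45.8 to 48.0) and 19.4% (18.5 to 20.3) of 7561 genes without a Hep3B promoter peak. The MEF share was 89.8% in the weakest of 4 groups of genes by strongest peak (88.4 to 91.1) and 96.4% in the strongest (95.5 to 97.2), an odds ratio of 3.05 (2.29 to 4.05, two-sided Fisher's exact test, p = 5.34e-16). In liver the shares were 41.8% and 54.2% (odds ratio 1.65, 1.45 to 1.88, exact test, p = 1.66e-14). With only the 14000 strongest peaks of each mouse list the liver ratio was 1.26 (0.973 to 1.62, exact test, p = 0.0917) and no longer passed the test, while the MEF ratio was 4.25. Matching by symbol passes over renamed genes, and the human and mouse lists differ in more than species. The Hep3B and MEF lists share the FLAG antibody and the induction but differ in species and cell type, while the liver list also differs in its antibody and in holding the animals' own PROX1, so these cannot be told apart.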

How the data were processed

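CUT&RUN reads were processed by the authors with nf-core/cutandrun: Trim Galore 0.6.6, Bowtie2 2.4.2 against hg38 or mm10, and Genrich 0.6.1, which called one consensus peak list per antibody group after removing duplicates and mitochondrial reads. How the IgG samples entered the calls is not given in the sources used here. The deposited signal is the area under each peak. The deposited −log10 p and −log10 q values are those of the summit, and the deposited summit offset gives its position. None was normalized between lists, and read depth is unknown. All 22 samples were grouped by their labels.

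TSSs came from GENCODE 44 and, for mouse, M21, and sequence came from hg38, which is the build the authors name. The authors' q-value limit in the caller was lenient, but the lowest −log10 q among promoter peaks was 1.29. A peak was a promoter peak if its summit lay within 1000 bp of a TSS on chromosomes 1 to 22, and a target gene was a protein-coding gene with such a summit within 1000 bp of a protein-coding transcript's TSS. 6-mers were tested by two-sided exact binomial tests, and motifs, divergent promoters and shared genes by two-sided Fisher's exact tests, with Benjamini-Hochberg adjustment where many were tested. Common odds ratios over strata are Mantel-Haenszel estimates. Intervals of shares are Wilson intervals at 95% and cover counting error over peaks or genes. Neighbouring peaks and genes that share a promoter are not independent. Gene lists were described without a test. The tests were tried on simulated sequences with planted 6-mers. Tools were Python 3.11.15, NumPy 2.4.6, pandas 2.3.3, SciPy 1.17.1, pysam 0.24.0 and matplotlib 3.10.9.

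Named were the 10 strongest promoter peaks, the 3 strongest genes of each list with the genes of lists where at most 3 had or lacked a peak, 12 genes the study followed, 2 strong peaks for each of the 4 motifs with the highest summit-to-flank ratio, the 5 strongest without a protein-coding start, and the 3 on each side of the limit. A gene that this rule would name is not reported here. The further NF-Y sequences of STAT3, PHTF2 and GCDH and the genes named for a motif within a list were chosen after their values were seen. The promoter peaks, motifs and gene lists were chosen with earlier results of these data known. The motif letters and the PROX1 consensus were written from general knowledge and are not the authors' matrices.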

Additional observations from a re-analysis of the deposited data

Results flagged for a closer look

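The rule left out chromosome X, where the Hep3B list held 114 peaks. Of these, 100 had their summit within 1000 bp of a TSS, which is drawn to attention because it is signal outside the comparisons above. They covered 113 of 853 protein-coding X genes, or 13.2% (11.1 to 15.7), against 46% on chromosomes 1 to 22. The reason for the lower share was not tested.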

How the results depend on the processing

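No paired analysis was possible because the deposited list pools the replicates of its group, and for the same reason no replicate could be left out. The share of protein-coding genes with a promoter peak was 43.8% with a 500-bp window, 47.2% with 2000 bp, 42.7% at q below 0.01 and 28.4% for peaks with an area of at least 500, which left 5135 promoter peaks. The median distance of summit to TSS was 66 and 83 bp with these windows, 88 bp with protein-coding and 86 bp with basic transcripts, and 71 bp under both stricter peak limits. With flanks 400 bp away, 378 6-mers were higher and 867 lower at promoter summits, 7-mers gave 351 higher, and an area of at least 500 gave 285 lower. Against other peaks, 28 were higher and 458 lower with flanks 400 bp away, and 25 and 309 with 50 bp on each side. By strength, 3 motifs were higher with groups by area and 3 higher and 0 lower with 25 bp on each side, where FOXA had an adjusted p of 0.11. Ratios that crossed 1 were NRF1 0.848 and ETS 0.892 with groups by area, CRE 0.922 and E2F 0.865 against other peaks in CpG strata, and HNF4 1.38 and FOXA 1.13 in promoters in CpG strata. The liver ratio was 1.26 (exact test, p = 0.0917) with 14000 mouse peaks. Strata of signed distance, CpG strata against other peaks and the longer promoter were added after seeing the data. Gene lists above the background were 11 in place of 14 with an area of at least 500. Leaving out genes with no protein-coding transcript, also added later, gave 11 motifs higher and 6 lower at the main starts of genes with a peak. Of the values under these alternatives, 40 of the main results and 219 of the single motifs and lists kept their direction and side of the threshold, stayed in their interval or, for counts, stayed within 1.5 times. Among the main results, 22 moved and 1 was weaker. Among the single motifs and lists, 14 moved, 6 reversed their direction, 7 were weaker and 2 stronger. The causes were not tested.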

Other observations

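The motifs within the gene lists differed in a way the report has not yet described. Over all 8628 genes with a promoter peak, 13.4% had an NF-Y box within 50 bp of a summit. Among the 20 mitosis and cell cycle kinase genes with a peak, 10 had one (50.0%, 29.9 to 70.1), and these were CDC25A, TTK, BUB1, CDC20, CDK1, E2F1, TOP2A, CCND3, CCNB2 and AURKB. ER chaperone and unfolded protein response genes had an NF-Y box at 7 of 22 (31.8%, 16.4 to 52.7), among them HSPA5, XBP1, DDIT3 and P4HB. DNA replication genes had 7 of 28 (25%, 12.7 to 43.4), with PCNA, MCM5 and CDC6, and ZNF genes 57 of 288 (19.8%, 15.6 to 24.8). Aminoacyl-tRNA synthetases had 8 of 32 (25%, 13.3 to 42.1). Among small lists, oncofetal genes had 3 of 11 (27.3%, 9.75 to 56.6), hepatocyte genes 2 of 6 (33.3%, 9.68 to 70.0) and keratins 1 of 3. It was rarer in the mitochondrial ribosome, at 4 of 62 (6.45%, 2.54 to 15.4), and in the proteasome, at 1 of 27 (3.7%, 0.657 to 18.3). The intervals of the mitosis, ER and ZNF lists lay above 13.4%, and those of the other lists named here included it. An ETS site was at 5.00% of genes with a promoter peak. Its share was 23.3% in the core spliceosome (11.8 to 40.9) and 20.8% in Mediator (9.24 to 40.5). Its interval also lay above 5.00% in the RNA polymerase II, proteasome, mitochondrial ribosome, chaperonin and ZNF lists. The remaining lists with peaks had intervals that included 5.00%. The NRF1 site was at 20.0% of core spliceosome genes (9.51 to 37.3) against 7.50% of genes with a peak.

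The USF/TFE E-box, which is the core of the element that TFEB and related factors bind, was present at 2.01% of genes with a promoter peak. In the lysosome and autophagy list it was found at 3 of 20, the calcium channel MCOLN1 and the proton pump subunits ATP6V1H and ATP6V0E1 (15%, 5.24 to 36.0). No gene of the proteasome, chaperonin or mitochondrial ribosome lists had it, at 0 of 27, 0 of 20 and 0 of 62. The intervals of these 3 lists reached 12.5%, 16.1% and 5.83%, so each included 2.01%. The motif was also found at 1 gene each of the Mediator, core spliceosome and mitosis lists and at 2 of 288 ZNF genes. These shares rest on few genes and no test was made.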
